A study of Drosophila melanogaster with 10 samples.

Results

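The 3-24 collection consists of 2 of the 10 bulk RNA-seq samples of sorted Kenyon cells (KCs), 1 from dSERT4 and 1 from dSERT16 flies, and it was compared with the 8 samples of the 3-30, 3-31, 4-06 and 4-07 collections. Its members were taken from the prefix of the sample titles, which was read as a collection date. The collection was singled out with its low counts of glial transcripts already known. The values, calls and adjusted p of glial marker genes below are therefore a description and not evidence. The study left 1 pair of samples, which it does not name, out of its own analysis. Its stated reason was a modest increase in technical variability, seen in a principal component analysis. The pair without columns in its table is this one.

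All 10 samples were KCs of female brains on the day of eclosion (day 0). The flies carried Mef2(P247)-gal4, which labels most KCs of the α/β, α'/β' and γ subtypes, with relatively fewer of the α'/β' type, and UAS-nls.GFP, which puts GFP in the nucleus. They were homozygous for dSERT16, an imprecise P-element excision in the serotonin transporter gene SerT, or for dSERT4, the background-matched control, which carries a smaller deletion of its own. Optic lobes were removed and brains of 1 genotype were pooled, dissociated and sorted for GFP, so each sample is a pool of animals. Libraries of all samples were prepared with SMART-seq at the same time.

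KCs are neurons whose fibres build the mushroom bodies, the insect centres for learning. Glia of the fly brain fall into classes with different tasks. Astrocyte-like glia enter the neuropil and take up transmitters, cortex glia wrap neuronal cell bodies, ensheathing glia border the neuropil and clear debris, and surface glia form the blood-brain barrier. Repo, a homeodomain factor, marks nearly all of them, and GFP sorting can carry glial cells, fragments or free RNA into a neuronal sample. In a bulk sample, fewer cells of a type and less RNA per cell cannot be told apart.

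The libraries of 3-24 were the deepest, with 69997102 reads on annotated features in dSERT4 and 63438200 in dSERT16, against 18446396 to 52306088 in the other samples. Unmapped reads made up 8.91% and 8.03% of their reads, below the range of 10.8% to 14.5% in the others (two-sided exact permutation test within genotype, p = 0.04, the smallest p that the 25 arrangements allow, and 0.173 after adjustment over 13 library measures). When whole collection dates were exchanged instead, since the 2 samples of a date may not be independent, p was 0.2, the smallest that 5 arrangements allow. With all libraries thinned to equal depth, 11868 and 11343 features were detected at 3-24, within the range of 11196 to 12506 in the others. SerT, the mutated gene, stood at 2.65 CPM (read counts scaled to library size) in the dSERT4 sample of 3-24 and at 0.919 to 3.39 CPM in the other dSERT4 samples. In the dSERT16 sample of 3-24 it stood at 0.795 CPM, and at 0.232 to 0.757 CPM in the other dSERT16 samples, so the genotypes did not overlap. These values include TMM normalization and are compared here only for 1 gene or list across samples, not between genes.

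Which transcripts differed at 3-24 was tested over 10387 features with genotype as covariate, and 94 of them (0.905%) had an adjusted p under 0.05 (edgeR quasi-likelihood test, Benjamini-Hochberg). These are referred to as called. At 3-24, 65 features (0.626% of those tested) were lower and 29 (0.279%) were higher, and 1436 had an unadjusted p under 0.05. The decreases were large, with a median log2 fold change of -2.20, and 56 of the 65 were by at least 2-fold. The increases were small, with a median of 0.66 and a highest value of 1.09. The median over all features tested was -0.01. Both samples of 3-24 lay below all 8 others for 63 of the 65 lower features and above all 8 for each of the 29 higher ones, against 3.91% and 5.38% of all features tested. Both samples deviated in the called direction for all 65 lower and all 29 higher features. The features were called on these same 2 samples, so the selection favours both the lack of overlap and the shared direction.

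The lower features were mostly of modest level in the other collections, with a median of 19.7 CPM there, and 49 of the 65 averaged under 50 CPM. Together they made up 0.589% of the counted reads in the dSERT4 sample of 3-24 and 0.646% in the dSERT16 sample. In the others the share was 0.916% to 1.18%. A large part of it lay on alphaTub84B and Act5C, which all cells express. They stood at 2320 and 2230 CPM in dSERT4 of 3-24 and at 3080 and 2300 CPM in dSERT16 of 3-24. The share is therefore no measure of transcripts of other cells. The 2 samples of 3-24 share a date, so that the comparison is also 1 date against 4. With the counts of each date summed, 47 features were called by edgeR, 46 lower and 1 higher, of which 39 were among the 94. The count of calls rested on both samples of 3-24. It fell to 26 without the dSERT16 sample, of which 18 were among the 94, and to 58 without the dSERT4 sample, of which 30 were among them. It also fell to 45 without the dSERT4 sample of 4-06, to 50 without the dSERT16 sample of 3-30 and to 52 without the dSERT16 sample of 4-07. The lower features numbered 24 without the dSERT16 sample of 3-24, 37 without dSERT4 of 4-06 and 41 without dSERT16 of 3-30.

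**Figure D1:**
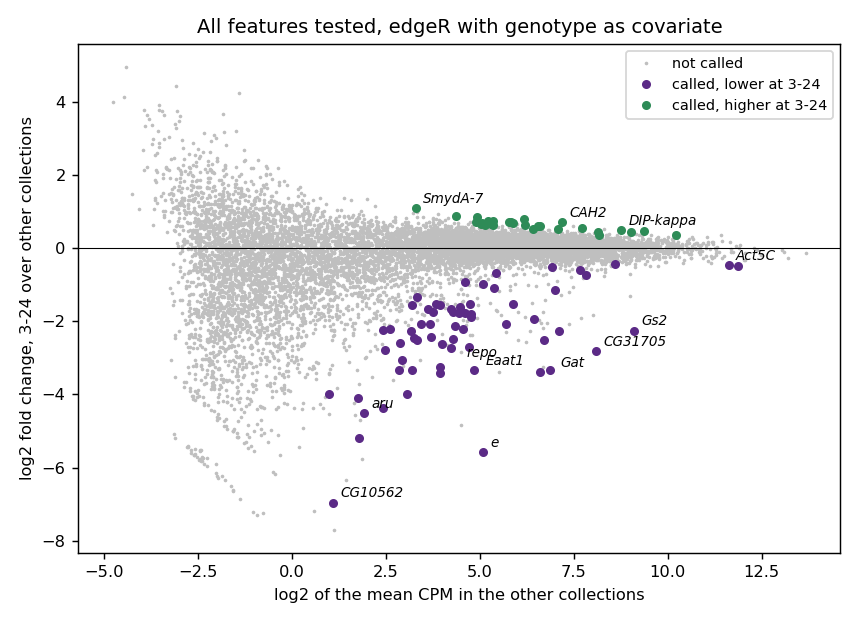
Each point is 1 of the 10387 features tested, with the log2 of its mean CPM in the 8 samples of the other collections on the x axis and its log2 fold change at 3-24 on the y axis. The 65 lower features reach a log2 fold change of -6.96, while the 29 higher ones stay between 0.35 and 1.09.

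Genes that mark astrocyte-like glia had the largest decreases among the glial classes. All 4 tested genes of that list were called lower, against 0.626% of all features tested, with a median log2 fold change of -3.36. Eaat1 (FBgn0026439, on 2L from 9333567 to 9341925 of the BDGP6 assembly, forward strand) encodes the glial glutamate transporter. It stood at 6.28 CPM (dSERT4) and 12.4 CPM (dSERT16) at 3-24, against a lowest value of 72.0, a median of 99.4 and a highest of 114 CPM in the 8 others. The groups were far apart, and 9.56% of the level remained (log2 fold change -3.39 ± 0.28 SE, adjusted p = 5.84e-05). Gat (FBgn0039915, on 4 from 629691 to 635350), the GABA transporter of astrocyte-like glia, stood at 14.7 and 8.53 CPM at 3-24 and at 79.3, 121.7 and 144 CPM (lowest, median, highest) in the others. Its level at 3-24 was 9.85% of that elsewhere (adjusted p = 0.000654), and a part of its exons overlaps another gene, whose reads cannot be told apart without strand.

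The gene e (FBgn0000527, ebony, on 3R from 21229839 to 21237177) encodes the enzyme that joins β-alanine to dopamine and histamine in glia. Only 37 and 57 reads fell on it at 3-24, or 0.537 and 0.889 CPM, while the others ranged from 17.6 to 62.7 CPM with a median of 26.3. Both samples were thus near 0, with 2.08% of the level left (log2 fold change -5.59 ± 0.64 SE, adjusted p = 0.00321). wun2, a lipid phosphate phosphatase, stood at 1.39 CPM (dSERT4) and 4.91 CPM (dSERT16), below the range of 15 to 37.6 CPM in the others (adjusted p = 0.000443). Of the other members of this list, alrm was listed at 0 in all 10 samples. So was the ribosomal protein gene RpS6, which every cell uses, so that a 0 here says nothing of the gene. AANAT1 could not be matched to a feature.

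Of the markers shared by most glia, 2 of 4 were called lower, and of those of cortex glia 2 of 3. Of all features tested, 0.626% were called lower. In repo, Gs2, nrv2, Cyp4g15 and zyd the dSERT16 sample of 3-24 was well below the dSERT4 sample, whereas in loco and wrapper the samples were closer together. repo (FBgn0011701) stood at 7.31 CPM (dSERT4) and 1.01 CPM (dSERT16), against 15.3 to 25.9 CPM elsewhere (log2 fold change -2.49 ± 0.46 SE, adjusted p = 0.023). Gs2, the glutamine synthetase that recycles glutamate in glia, stood at 170 and 68.6 CPM, against 392 to 670 CPM (adjusted p = 0.0421). For both genes the samples of 3-24 lay below all the others, and the dSERT16 sample was the lower one. nrv2, a subunit of the Na+/K+ pump that glia express strongly, stood at 284 and 141 CPM against 372 to 650 CPM, below all the others in both samples. It was not called by edgeR (adjusted p = 0.098) but was called lower by DESeq2 (adjusted p = 3.16e-06), and in edgeR fits without 1 sample the adjusted p went down to 0.00928. The last gene of the pan-glial list, loco, stood at 4.44 and 5.86 CPM and overlapped the range of 4.62 to 14.4 CPM.

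Among the 3 cortex glia genes, wrapper, a cell adhesion protein of the immunoglobulin superfamily, and Cyp4g15, a cytochrome P450, were called lower. wrapper stood at 1.99 and 1.53 CPM, against 3.01 to 14.8 CPM (adjusted p = 0.022), and Cyp4g15 at 12.6 CPM (dSERT4) and 3.01 CPM (dSERT16), against 20.5 to 34.8 CPM (adjusted p = 0.0475). zyd, an ion exchanger of cortex glia, stood at 52.0 CPM in dSERT4, inside the range of 28.7 to 89.3 CPM, and at 8.69 CPM in dSERT16, below it (adjusted p = 0.391). Summed over the cortex list, the dSERT4 sample held 66.6 CPM and the dSERT16 sample 13.2 CPM, against 63.7 to 131 CPM. Only the dSERT16 sample lay below the others in this sum.

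Not every glial marker was lower. The ensheathing glia genes Eaat2, a transporter of the Eaat1 family, and drpr (draper), the engulfment receptor, had log2 fold changes of 0.18 ± 0.08 SE and 0.06 ± 0.10 SE, and neither was called (adjusted p = 0.355 and 0.828). Eaat2 stood at 453 and 419 CPM, both above the highest of the others (418 CPM). Surface glia genes differed between the samples of 3-24. Mdr65, a transporter of the blood-brain barrier, stood at 8.67 CPM in dSERT4, within the range of 1.91 to 17.0 CPM, and at 1.28 CPM in dSERT16, below it (adjusted p = 0.864 for both samples together). The label of a collection poor in glia was itself taken from low glial counts, so these values do not test it. As a description, it held in both samples for the astrocyte-like and pan-glial lists. It also held in both for the cortex list by its mean log2 CPM (3.47 and 1.80 against a lowest value of 3.95 in the others). By the sum of the cortex list, most of which was zyd in the dSERT4 sample, it held in the dSERT16 sample alone. The label did not hold for the ensheathing genes Eaat2 and drpr. From which cells their reads came was not tested, so they do not show whether ensheathing glia were kept.

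Joined, the 5 glia lists hold 19 genes, of which 15 were tested. 8 of the 15 were called lower, against 0.626% of all features tested. 13 had a log2 fold change below 0, against 5280 of all 10387 features, and the median was -1.90. The choice of the collection favours these counts. Averaged over these 15 genes, log2 CPM reached 3.78 in the dSERT4 and 2.88 in the dSERT16 sample of 3-24, against 5.09 to 5.63 elsewhere. The genes were expressed at 3-24 nonetheless, with a sum of 1220 and 870 CPM against 1660 to 2350 CPM. Eaat2 and drpr together made up 654 and 613 CPM of the sum at 3-24.

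As a list, KC genes stayed within the range of the other collections. None of the 15 KC genes was called with edgeR (3 had an unadjusted p under 0.05), the median log2 fold change was 0.01, and their summed level was 24800 CPM (dSERT4) and 21500 CPM (dSERT16), within the range of 21200 to 25600 CPM in the others. Under other scalings this median took either sign and stayed within 0.02 of 0. Of the 3 genes with an unadjusted p under 0.05, rut and mub fell (log2 fold change -0.30 ± 0.14 and -0.31 ± 0.14 SE) and sNPF rose. The transcription factors ey, Mef2 and dac had log2 fold changes of 0.01 ± 0.08, -0.11 ± 0.10 and 0.13 ± 0.12 (SE). Pka-C1, the catalytic subunit of protein kinase A that acts in olfactory learning, stood at 6140 and 4050 CPM at 3-24. These values lay on either side of the range of 4304 to 6040 CPM in the others, so that its fold change of -0.07 ± 0.13 SE averages 2 samples that deviated in opposite directions. sNPF, the neuropeptide of KCs, stood at 3840 and 3160 CPM against 2532 to 3194 CPM, with a log2 fold change of 0.35 ± 0.08 SE (adjusted p = 0.0566 with edgeR and 0.0184 with DESeq2, which called it alone of the 15). The 10 general neuronal genes tested had a median of -0.01, and none was called with either tool (1 had an unadjusted p under 0.05 with edgeR).

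**Figure D2:**
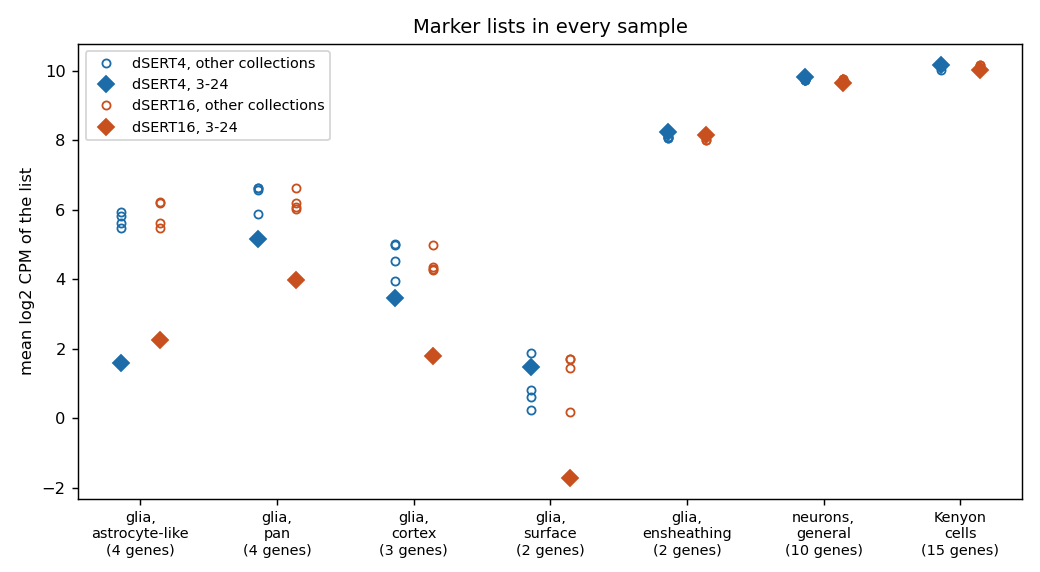
The mean log2 CPM of the tested genes of each marker list (y axis) is given for every sample, with diamonds for the samples of 3-24 and open circles for the 4 other collections of each genotype. The astrocyte-like list stands at 1.58 and 2.24 at 3-24 against 5.46 to 6.22 elsewhere, while the values of the KC list nearly coincide in all samples.

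Most of the lower features were on none of the lists: 10 of the 65 were list members, and 8 of those were glial. Among the genes with the largest decreases, CG10562 had 2 reads in dSERT4 and 0 in dSERT16 at 3-24, against 506 reads in the 8 others together. That is 0.708% of the level elsewhere (exact 95% interval for counting error 0.0856 to 2.57%), but the dSERT16 sample of 4-07 also held only 3 reads. CG7997 stood at 0.0725 and 0.109 CPM against 1.23 to 6.05 CPM (adjusted p = 0.0152). aru (arouser), an adaptor of the Eps8 family, stood at 0.218 and 0.109 CPM against 2.09 to 6.43 CPM (log2 fold change -4.52 ± 0.62 SE, adjusted p = 0.00132). Few reads fell on these genes at 3-24. Both samples lay below all the others, which was a condition for naming these genes.

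Several of the strongest decreases were in genes of lipid and xenobiotic metabolism. Fatp3, of the fatty acid transport protein family, stood at 0.232 and 0.265 CPM against 3.24 to 9.72 CPM (log2 fold change -4.38 ± 0.62 SE, adjusted p = 0.00142). Cyp6a13, a cytochrome P450, stood at 1.28 and 0.593 CPM against 5.71 to 13.9 CPM (adjusted p = 0.00132). These genes were chosen by the size of their decrease, and no enrichment of such functions was tested. CG11426, a lipid phosphate phosphatase of the same family as wun2, stood at 1.87 CPM (dSERT4) and 0.109 CPM (dSERT16) against 2.64 to 11.6 CPM (adjusted p = 0.0169). Of the others with the largest decreases, CG3376 stood at 0.682 and 2.31 CPM against 8.29 to 19.6 CPM, and CG1537 at 2.22 and 0.998 CPM against 10.6 to 21.8 CPM. CG10710, CG6908 and CG17739 kept between 5.81% and 6.36% of their level, with adjusted p of 0.00591, 0.046 and 0.0215.

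**Figure D3:**
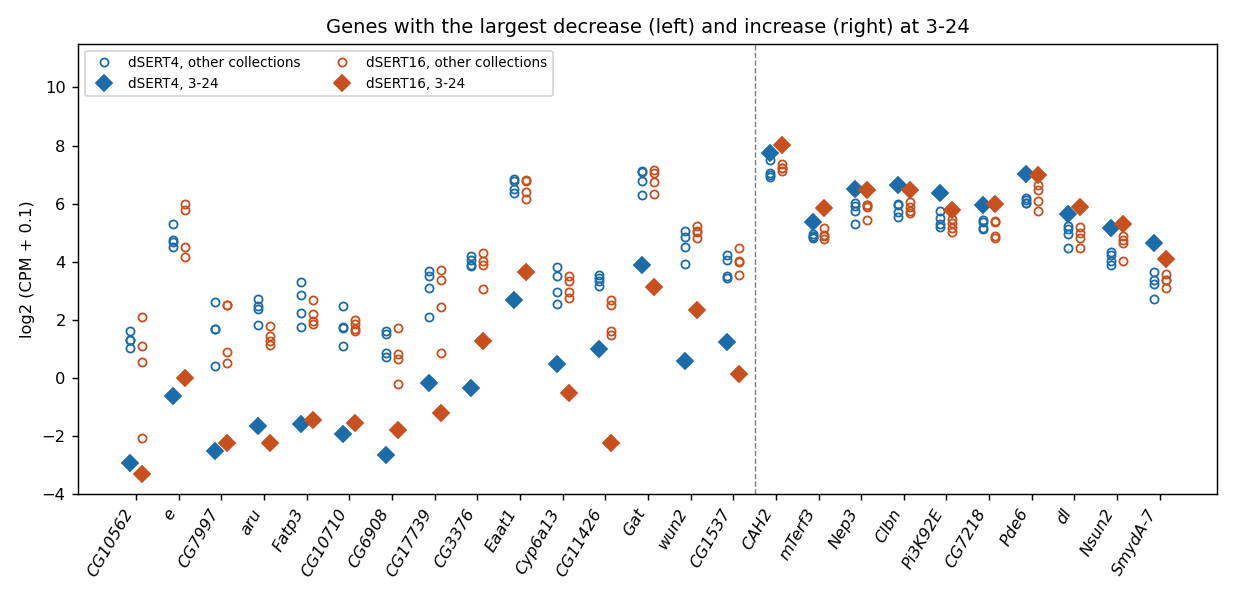
The log2 of CPM plus 0.1 is plotted for every sample, for the 15 genes with the largest decrease at 3-24 (left of the dashed line) and the 10 with the largest increase (right). Diamonds are the samples of 3-24 and open circles the other collections. That both diamonds lie outside the range of the circles was a condition for choosing each gene.

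Of the list of lipid carriers and lipid metabolism, 2 of 11 tested genes were called, both lower, against 0.626% of all features tested. Lsd-2, a perilipin of lipid droplets, stood at 7.18 and 3.60 CPM against 8.17 to 22.9 CPM (log2 fold change -1.56 ± 0.34 SE, adjusted p = 0.0408). GLaz (Glial Lazarillo), an apolipoprotein D-like carrier, stood at 4.47 CPM (dSERT4) and 1.73 CPM (dSERT16) (adjusted p = 0.0455). GLaz overlapped the range of 3.67 to 15.1 CPM in the others, since its level in the other dSERT16 samples was low as well. The median over this list was 0.03, and the enzymes of fatty acid synthesis on it, FASN1 and ACC, had log2 fold changes of -0.25 ± 0.10 SE and 0.03 ± 0.15 SE (adjusted p = 0.305 and 0.947).

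The remaining lower features were named after the results were seen, for their known roles. The FGF receptor htl and its adaptor stumps fell by 1.67 and 1.68 on the log2 scale (adjusted p = 0.0176 and 0.0183). htl stood at 3.54 and 4.15 CPM against 7.74 to 17.6 CPM, and stumps at 6.50 and 5.18 CPM against 12.6 to 37.6 CPM, with no overlap for either. Rh50, of the ammonium transporter family, fell by 2.07 (adjusted p = 0.0347), ine, of the neurotransmitter transporter family, by 1.72 (adjusted p = 0.0408), and cry, the blue-light photoreceptor of the clock, by 2.46 (adjusted p = 0.0343). At the other end, the cytoskeletal genes Act5C and alphaTub84B, which all cells express, fell by 0.47 and 0.48 (adjusted p = 0.0497 and 0.0343), with Act5C at 2230 and 2300 CPM against 2670 to 3804 CPM.

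In 13 of the 65 lower features the call stood in each of the 10 fits that left out 1 sample, and in none of the 29 higher ones. The 13 were Eaat1, Gat, wun2, aru, Fatp3, CG3376, Cyp6a13, CG1537, Cyp28a5, Tsp5D, Chd64, side-VIII and CG8745. Of these, Chd64, a calponin, stood at 7.38 and 8.39 CPM against 20.3 to 35.7 CPM, and side-VIII, of the Sidestep family, at 20.1 and 20.4 CPM against 40.1 to 77.3 CPM. The samples of 3-24 were close to each other for both genes. The calls of e, repo, Gs2, wrapper, Cyp4g15, Lsd-2 and GLaz were each lost in at least 2 of these fits, with adjusted p up to 0.123, 0.0638, 0.0868, 0.236, 0.243, 0.322 and 0.263.

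The 29 higher features were all increased by little more than 2-fold or less. SmydA-7, of a family with SET and MYND domains, stood at 25.0 and 17.0 CPM against 6.38 to 12.3 CPM (log2 fold change 1.09 ± 0.25 SE, adjusted p = 0.0464). dl (dorsal), an NF-κB factor, stood at 49.8 and 59.4 CPM against 21.8 to 37.4 CPM (adjusted p = 0.046), and Nsun2, an RNA methyltransferase, at 35.5 and 39.5 CPM against 14.6 to 29.1 CPM (adjusted p = 0.0455). Both samples lay above all 8 others for each of these genes, which was a condition for naming them. Pde6, a phosphodiesterase, stood at 128 and 125 CPM against 53.5 to 98.9 CPM (adjusted p = 0.0237). CAH2, a carbonic anhydrase, stood at 215 and 259 CPM against 120 to 183 CPM (adjusted p = 0.0169), and Clbn, of ribosome quality control, at 98.4 and 88.4 CPM against 46.1 to 66.8 CPM (adjusted p = 0.0211).

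The other genes with the largest increases, CG7218, Pi3K92E, Nep3 and mTerf3, had log2 fold changes of 0.71 to 0.75. Pi3K92E is the catalytic subunit of phosphoinositide 3-kinase and Nep3 a neprilysin peptidase. None of the 29 was on any of the lists, the KC list included. These calls depended on the samples used: 0 higher features were called by edgeR without the dSERT4 sample of 3-24 (431 had an unadjusted p under 0.05), and 2 without the dSERT16 sample of 3-24. With the counts of each date summed, CAH2 was the higher feature still called. Without 1 of the other samples, the number was 49 (dSERT4 3-30), 17 (dSERT4 3-31), 8 (dSERT4 4-06), 9 (dSERT16 3-30), 13 (dSERT16 4-06) or 8 (dSERT16 4-07). With all libraries thinned to the depth of the smallest, 17 were called, and the libraries of 3-24 were the deepest of the series.

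How far each sample of 3-24 deviated from its own genotype was tested with the other 4 samples of that genotype, and the lone sample was assumed to vary like the other groups. In dSERT4, 20 features (0.193%) were called, 19 of them lower. The increase was in DIP-kappa, an immunoglobulin-domain protein of neurons, which stood at 671 CPM against 412 to 440 CPM (log2 fold change 0.65, adjusted p = 0.0284). In dSERT16, 56 features (0.539%) were called, and all were lower. 12 features were called in both genotypes, which is 60% of the dSERT4 and 21.4% of the dSERT16 calls. They were Eaat1, Gat, wun2, aru, Fatp3, CG3376, CG1537, Cyp28a5, Tsp5D, Chd64, side-VIII and CG8745, with adjusted p of at most 0.0474 in each genotype.

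The 65 lower features had median log2 fold changes of -1.90 (dSERT4) and -2.66 (dSERT16), and 56.9% of them were more negative in dSERT16, against 52.8% of all features tested. The difference between the genotypes was called for 10 features (0.0963%), and 703 had an unadjusted p under 0.05. None of the 10 was among the 94 called features. Each date gave 1 sample of either genotype, and with the date as a block the difference was called for 36 features (edgeR, 3 residual degrees of freedom), 31 of them lower in dSERT16. All 10 were among the 36, with adjusted p of at most 0.0234. So were repo, Gs2, CG31705 and Rh50 of the 94, each with a larger decrease in dSERT16, with adjusted p of 0.0285, 0.0234, 0.0198 and 0.0398.

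In 7 of the 10 (0.0674% of the features tested) the dSERT16 sample of 3-24 was the lower one. kumpel, a glial monocarboxylate transporter, stood at 36.1 CPM in dSERT4 of 3-24, against 44.3 to 69.5 CPM in the other dSERT4 samples, and at 1.40 CPM in dSERT16 of 3-24, against 23.4 to 53.4 CPM. The loss was thus nearly complete in dSERT16 (difference of log2 fold changes -4.10, adjusted p = 0.0282). CG5404 stood at 19.7 CPM (dSERT4) and 0.577 CPM (dSERT16) of 3-24 (difference -4.63, adjusted p = 0.00545), and Ugt49B1, a UDP-glycosyltransferase, at 7.76 and 0.156 CPM (difference -5.12, adjusted p = 0.0282). The others were ced-6, the adaptor of the engulfment pathway, the innexin ogre, Adgf-D, of the adenosine deaminase growth factor family, and the hexosaminidase Hexo2, with differences of -2.28 to -4.02.

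The innexins ogre and Inx2 build the gap junctions of glia. They stood at 3.53 and 4.41 CPM in dSERT16 of 3-24 and at 21.7 and 20.6 CPM in dSERT4, below the ranges of 35.2 to 77.0 and 41.7 to 96.1 CPM in the others. Neither was called by edgeR for the collection as a whole (adjusted p = 0.0977 and 0.141), while DESeq2 called both lower (adjusted p = 6.49e-05 and 0.000138). With the date as a block, the difference between the genotypes was called for Inx2 as well (adjusted p = 0.0279).

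In the remaining 3 of the 10 the dSERT4 sample of 3-24 stood apart. Top3alpha, a DNA topoisomerase, was at 0.218 CPM there, against 6.88 to 16.5 CPM in the 9 other samples (difference 5.67, adjusted p = 0.00545). Su(H), the transcription factor of the Notch pathway, was at 5.29 CPM against 20.6 to 28.5 CPM (difference 2.31, adjusted p = 0.0282), and CG5645 at 0.682 CPM against 5.42 to 12.4 CPM (difference 3.72). Each of these values is that of 1 library, and with the libraries thinned to equal depth 2 features were called for the difference.

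**Figure D4:**
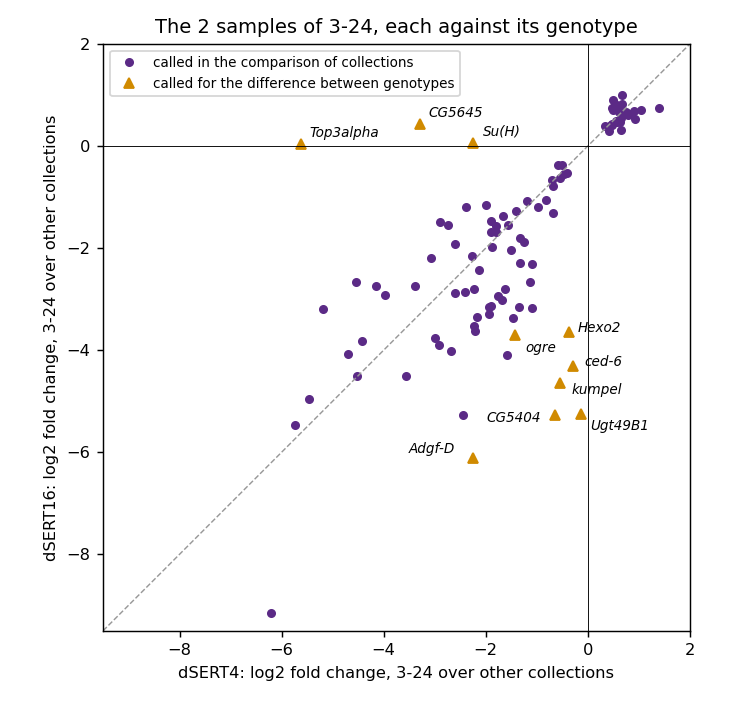
For each called feature (circles) and each feature called for the difference between genotypes (triangles), the log2 fold change of the dSERT4 sample of 3-24 against the 4 other dSERT4 samples is on the x axis and that of the dSERT16 sample on the y axis. The circles lie on the same side of 0 in both genotypes, which their selection on the same 2 samples favours. Of the triangles, 7 lie far below the dashed line of equal change and 3 above it.

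Whether the genes called at 3-24 also followed the glial genes in samples that the comparison did not single out was examined in the 8 others. There the mean log2 CPM of 15 glial genes ranged only from 5.09 to 5.65. This level averages in Eaat2 and drpr, which were not lower at 3-24. It also averages in Mdr65, which stood at 17.0 CPM in dSERT4 of 3-31 and at 1.91 to 3.98 CPM in dSERT4 of the other dates fitted. The slope of each feature on the level was fitted with genotype as covariate. None of 8675 features had a slope with an adjusted p under 0.05 (edgeR, smallest 0.332), 427 had an unadjusted p under 0.05, and no other tool was run. All 57 lower features outside the glia lists were tested. 44 of them (77.2%) had a slope above 0, against 50.8% of all features tested, and their median slope was 1.02 against 0.01. 17 of them (29.8%) had a slope above 0 with an unadjusted p under 0.05, against 2.85% of all features, and 0 had a slope below 0 at that p, against 2.07%. The 57 features are not independent of each other, since all slopes rest on the same 8 libraries. From which cells these transcripts came was not tested.

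Among the 17 were cry with a slope of 3.09 ± 0.88 SE, mfas with 2.40 ± 0.46, Cyp28a5 with 2.21 ± 0.60, CG31705 with 1.78 ± 0.36, CG1552 with 1.75 ± 0.35 and Rh50 with 1.12 ± 0.40. A slope of 1 means that a feature changed by the same factor as the glial genes did on average. Act5C and alphaTub84B, among the smallest decreases, had slopes of -0.48 ± 0.27 SE and -0.17 ± 0.26 SE. Of the 29 higher features, 16 had a slope below 0, none had an unadjusted p under 0.05, and the median was -0.03.

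**Figure D5:**
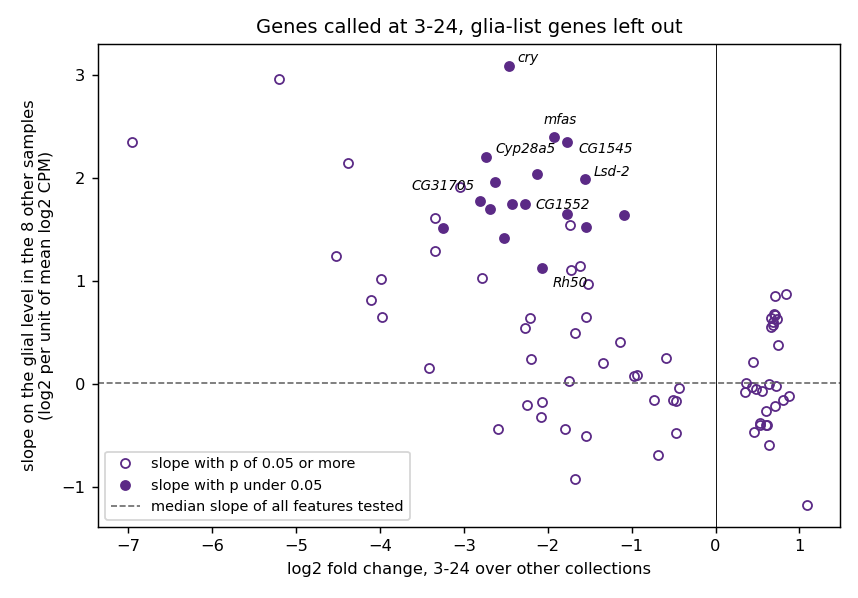
For each called feature outside the glia lists, the log2 fold change at 3-24 is on the x axis and the slope on the mean log2 CPM of the glial genes in the 8 samples of the other collections on the y axis. Filled circles have an unadjusted p under 0.05, and all 17 of them are genes that were lower at 3-24.

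Lists for the other cell types that a brain dissection could hold gave no call in either direction with edgeR. Of their 85 tested genes, 9 had an unadjusted p under 0.05, and DESeq2 called 6 lower and 0 higher. The list medians were -0.15 for cholinergic neurons (3 genes tested), -0.29 for neurons of other transmitters (11), -0.30 for neuropeptides (17), 0.03 for photoreceptors and eye (18), -0.84 for fat body (6), -0.07 for blood cells (7), -0.57 for muscle (12), -0.63 for trachea (4) and -1.45 for neural progenitors and the cell cycle (7). In the last list 6 of the 7 genes had a log2 fold change below 0, but it was hardly expressed anywhere, with a sum of 1.51 CPM (dSERT4) and 1.20 CPM (dSERT16) at 3-24 against 1.30 to 4.42 CPM in the others. The summed level of the photoreceptor list was 260 CPM (dSERT4) and 859 CPM (dSERT16) of 3-24, within the range of 162 to 904 CPM in the others. That range mixes the genotypes, since prom stood at 350 to 717 CPM in the other dSERT16 and 1.54 to 54.6 CPM in the other dSERT4 samples. The paper proposes that the dSERT16 deletion itself raises prom. At 3-24, prom made up 641 CPM of the dSERT16 sum and norpA 199 CPM of the dSERT4 sum, so these sums say little of photoreceptor cells. That of the fat body list was 31.1 and 9.87 CPM against 16.4 to 55.8 CPM, and that of the blood cell list 1240 and 1380 CPM against 1250 to 1590 CPM. Within the blood cell list, 4 of the 7 tested genes were below 0 and 3 above, with log2 fold changes from -2.68 to 0.76. The genes of both collagen IV chains, which blood cells and fat body secrete, were low in the dSERT16 sample. Col4a1 stood at 24.0 CPM (dSERT4) and 4.87 CPM (dSERT16) against 36.9 to 123 CPM (log2 fold change -2.58, adjusted p = 0.209 with edgeR and 0.00205 with DESeq2). vkg stood at 23.1 CPM (dSERT4) and 6.58 CPM (dSERT16) against 19.6 to 80.5 CPM (log2 fold change -1.69, adjusted p = 0.203 with edgeR and 0.0163 with DESeq2). The part of these cells in the result was not tested.

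Some groups of housekeeping genes leaned to 1 side without a call, and the samples of 3-24 differed from each other in them. Of 79 ribosomal protein genes tested, 72 had a log2 fold change below 0 (median -0.25), but their median was -0.52 for the dSERT4 sample and 0.02 for the dSERT16 sample. All 15 mitochondrially encoded features tested were below 0 (median -0.58), with medians of -0.89 (dSERT4) and -0.06 (dSERT16). All 12 glycolytic genes were below 0 as well (median -0.24), and here both samples went the same way, with medians of -0.17 and -0.34. Of all 10387 features tested, 5280 were below 0. By mean log2 CPM, both samples of 3-24 lay within the others for glycolysis (8.93 and 8.97 against 8.88 to 9.56). For ribosomal protein genes the dSERT4 sample lay below the others (7.2 against 7.35 to 7.91) and the dSERT16 sample within (7.75). The same held for mitochondrially encoded genes (3.87 and 4.4 against 3.99 to 5.25). For the stress response list the medians were 0.23 (dSERT4) and -0.93 (dSERT16). The septate junction list, whose genes seal the blood-brain barrier, had a median of 0.21, with 0 of 8 genes called by edgeR or DESeq2 (1 at an unadjusted p under 0.05 with edgeR) and 7 above 0.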

How the data were processed

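RNA-seq libraries of 10 samples of sorted KCs were analysed. STAR was run by the authors against BDGP6 (dm6), and they deposited, per sample, whole-number counts of uniquely mapped reads per gene, without normalization. The tables hold 23882 features, and the unstranded column was used. The rows for reads outside 1 feature (unmapped, multimapping, no feature, ambiguous) were left out of library sizes, and held 18.1% to 25.3% of the reads. The authors' table of TPM values, fold changes and p-values for their genotype comparison was not used. Positions come from an annotation of the same assembly (BDGP6).

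Features were kept by filterByExpr (minimum count 10, total 15), normalized by TMM and tested with edgeR 4.0.16 in R 4.3.3 (glmQLFit with robust estimation, glmQLFTest), with genotype and collection as terms and Benjamini-Hochberg adjustment over all features. The effect within each genotype and the difference between genotypes came from a fit of 4 group means. The standard error was taken as the size of the log2 fold change over the square root of F. Mean log2 CPM of lists used a prior count of 2. Library measures were compared with exact permutation tests.

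Each sample is a separate pool of brains, and each date gave 1 sample of either genotype. The tests of 3-24 treat the samples as independent, although both of 3-24 share 1 date. The deviations of same-date samples from their group means correlated by 0.024 to 0.093 over features in the 4 other dates. Between samples of different dates the correlations ran from -0.1 to 0.065. Of the 8 samples of the 4 other dates, 7 were closest to the sample of their own date. Samples of a date were thus not fully independent. The pairing by date comes from the titles. The difference between genotypes was also fitted with date as a block. In the other comparisons date cannot be such a term, because it contains the collection effect, so the counts of each date were summed, and limma-voom (limma 3.58.1) was run with date as a random block (correlation 0.012). Depth ranged from 18446396 to 69997102 counts on features. Intervals cover counting error only, since the reads carry no molecular identifiers.

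The members and the gene lists were chosen with earlier results of these data known. Named genes are the 15 largest decreases and 10 largest increases among called FlyBase genes with both samples outside the range of the others, every called list member, the most counted gene of each glia list and of the KC list, and up to 5 genes called for the difference between genotypes. Alternatives were DESeq2 1.42.0, other scalings and filters, thinned libraries, the summed strand columns, no genotype term, other thresholds, another glial list, a prior count of 0.5 and leaving out each sample. The fits with dates and limma were added after the data were seen. The scripts were tested on simulated data, with samples drawn as independent. There edgeR recovered 24 of 47 tested features with a log2 change of -2 and 15 of 48 with -1. It recovered 18 of 47 with a log2 change of 1 and 33 of 50 with 2. Of the unchanged features, edgeR called 3 and DESeq2 called 47. The lack of a call therefore does not show that a feature was unchanged, and calls by DESeq2 alone are less certain.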

Additional observations from a re-analysis of the deposited data

Results flagged for a closer look

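For 10 genes the change at 3-24 differed between the genotypes by the test of the difference itself. The difference of log2 fold changes, dSERT16 minus dSERT4, was -4.63 for CG5404, -5.12 for Ugt49B1, -4.10 for kumpel, -4.02 for ced-6, -2.28 for ogre, -3.88 for Adgf-D and -3.27 for Hexo2. It was 5.67 for Top3alpha, 2.31 for Su(H) and 3.72 for CG5645. Each rests on 1 sample of 3-24 per genotype.

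Some samples of the other collections stood far from the 3 others of their group. Nep3 was at 43.6 CPM in dSERT16 of 3-31 (others 59.0 to 62.0 CPM), nrv2 at 372 CPM in dSERT4 of 4-07 (605 to 650 CPM), zyd at 73.5 CPM in dSERT16 of 4-06 (28.7 to 34.3 CPM), Mdr65 at 17.0 CPM in dSERT4 of 3-31 (1.91 to 3.98 CPM) and Ugt49B1 at 13.1 CPM in dSERT4 of 3-31 (6.43 to 7.56 CPM). These are 5 of 82 groups of 4 samples examined, and chance flags about 1 in 20 groups.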

How the results depend on the processing

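With the collection date as a block, the difference between genotypes was called for 36 features in place of 10, all 10 included. With the counts of each date summed, the 94 calls became 47 (46 lower, 1 higher). limma-voom gave 193 calls (104 higher), and 170 (89 higher) with the date as a random block, of which 86 and 84 were among the 94. These fits were chosen after seeing the data. No named gene changed its direction while called. The 94 calls became 502 with DESeq2 (372 lower, 130 higher), among them all 94, 58 without a genotype term (41 lower, 17 higher), 19 at an adjusted p under 0.01 (18 lower, 1 higher) and 57 with at least 2-fold change (1 higher). The higher calls numbered 46 without a filter and 17 with thinned libraries. Without 1 sample, the calls ranged from 26 to 141, the lower ones from 24 to 92 and the higher ones from 0 to 49. The difference between genotypes was called for 108 features with DESeq2 and for 2 with thinned libraries. The cause of these shifts was not tested. Other scalings, another filter and the summed strand columns gave 85 to 109 calls, of which 80 to 87 were shared with the 94. The shifts of list medians and of the slope fit under these choices were not tested. With 1 sample of 3-24 per genotype, a deviation of a single library and one of a genotype cannot be told apart.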

Other observations

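Some list genes were listed at 0 in the unstranded column and held reads in the strand columns. moody, a receptor of surface glia, stood there at 6.73 CPM (dSERT4) and 1.65 CPM (dSERT16) of 3-24, against 6.84 to 24.0 CPM in the others (log2 fold change -1.96, adjusted p = 0.0471 with edgeR on the summed strand columns). The innexin Inx3 stood at 10.9 and 2.21 CPM against 7.01 to 24.1 CPM (log2 fold change -1.37, adjusted p = 0.202). Tret1-1, a sugar transporter of surface glia, stood at 6.48 CPM (dSERT4) and 1.04 CPM (dSERT16), against 1.51 to 7.05 CPM (adjusted p = 0.791). For these genes as well the dSERT16 sample was the lower one of 3-24.

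Arr2, an arrestin of photoreceptors, stood on the same columns at 1.28 CPM (dSERT4) and 3.30 CPM (dSERT16) of 3-24, above the range of 0 to 0.709 CPM in the others (log2 fold change 3.78, adjusted p = 0.121).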
